A study of Mus musculus with 2 samples.

Results

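The 10 imprinted genes Nnat, Peg10, Sgce, Asb4, Plagl1, Peg3, Mest, Grb10, Zdbf2 and Ndn were read from the UMI counts of induced myogenic progenitor cells (iMPCs), as 10 of the 25828 features of both matrices. The genes were chosen by symbol, and some were picked for their difference between the 2 clones in these same data, so their clone values are a description and carry no test. Both libraries came from transgene-free iMPC clones made from fibroblasts of Tg:Pax7-nGFP/C57BL6;DBA2 mouse embryos by 4 transfections with synthetic MyoD mRNA in iMPC medium with B18R, an interferon-binding protein. The F/R/C group was derived and kept in Forskolin, RepSox and CHIR, and the F/R/C+CP group in the same compounds plus the JAK inhibitor CP690550 (CP). They are called the CP-free clone and the CP clone from here on. The cell suspensions were strained to take out debris and multinucleated myotubes. Each group is 1 library, so the clone, the compound and the library cannot be told apart, no difference has a replicate check, and every interval below covers counting error only.

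Imprinted genes are expressed mainly from 1 parental copy, set by DNA methylation laid down in the egg or the sperm and kept through cell division by the maintenance methyltransferase and its partners. Many of them act on growth, and several are known from muscle, fat and the placenta, where they are higher in the embryo than after birth. Plagl1 codes for a zinc finger transcription factor placed at the centre of a network of co-expressed imprinted genes, and 8 of the 10 genes here are known as paternally expressed, Asb4 as maternally expressed and Grb10 as maternally expressed in most tissues. The counts hold no information on the parental allele.

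Promoters are shown for the matched genes that differed by 2-fold or more between Acta1-high and Pax7-positive barcodes in the same direction in both libraries. RefSeq promoters of build GRCm38.p6, each running from 250 bases before to 50 after a start site, matched 8 of the 10 genes, with 13 promoters in all, and were not found for Peg10 and Sgce. The first 3 genes below were lower in Acta1-high than in Pax7-positive barcodes, and Zdbf2 was higher. CpG sites, the bases that imprinting methylates, are in capitals, and every sequence is given 5′ to 3′ on the strand of its gene.
Nnat, plus strand, chr2:157559828-157560127: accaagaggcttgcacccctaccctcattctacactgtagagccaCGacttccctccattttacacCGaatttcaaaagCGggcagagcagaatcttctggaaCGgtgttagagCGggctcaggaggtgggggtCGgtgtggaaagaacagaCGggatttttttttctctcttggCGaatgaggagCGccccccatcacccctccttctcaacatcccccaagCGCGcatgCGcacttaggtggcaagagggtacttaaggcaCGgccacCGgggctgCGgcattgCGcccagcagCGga
Plagl1, plus strand, chr10:13090582-13090881: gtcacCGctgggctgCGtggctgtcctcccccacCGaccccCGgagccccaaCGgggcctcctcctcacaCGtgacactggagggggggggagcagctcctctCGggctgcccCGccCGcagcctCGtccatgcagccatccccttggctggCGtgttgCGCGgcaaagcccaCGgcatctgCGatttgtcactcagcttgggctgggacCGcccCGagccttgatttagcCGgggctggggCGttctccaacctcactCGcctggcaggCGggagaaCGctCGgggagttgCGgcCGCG
Mest, upstream start site, plus strand, chr6:30733256-30733555: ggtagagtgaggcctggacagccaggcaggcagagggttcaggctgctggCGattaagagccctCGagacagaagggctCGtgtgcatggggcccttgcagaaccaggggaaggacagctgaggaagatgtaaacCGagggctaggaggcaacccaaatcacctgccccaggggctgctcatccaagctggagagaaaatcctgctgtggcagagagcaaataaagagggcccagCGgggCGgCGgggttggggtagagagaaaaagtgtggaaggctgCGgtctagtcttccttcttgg
Mest, downstream start site, plus strand, chr6:30737800-30738099: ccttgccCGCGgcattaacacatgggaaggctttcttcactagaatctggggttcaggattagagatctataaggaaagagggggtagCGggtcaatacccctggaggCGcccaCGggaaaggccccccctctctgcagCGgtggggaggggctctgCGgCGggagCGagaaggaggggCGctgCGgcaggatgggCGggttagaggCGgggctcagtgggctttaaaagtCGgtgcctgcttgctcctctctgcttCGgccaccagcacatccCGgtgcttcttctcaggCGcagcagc
Zdbf2, upstream start site, plus strand, chr1:63200108-63200407: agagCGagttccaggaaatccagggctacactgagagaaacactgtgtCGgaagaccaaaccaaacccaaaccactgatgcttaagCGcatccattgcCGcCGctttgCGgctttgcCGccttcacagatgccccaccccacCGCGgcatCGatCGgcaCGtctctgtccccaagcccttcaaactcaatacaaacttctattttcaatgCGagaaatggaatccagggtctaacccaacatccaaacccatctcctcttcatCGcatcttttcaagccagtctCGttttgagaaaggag
Zdbf2, downstream start site, plus strand, chr1:63273019-63273318: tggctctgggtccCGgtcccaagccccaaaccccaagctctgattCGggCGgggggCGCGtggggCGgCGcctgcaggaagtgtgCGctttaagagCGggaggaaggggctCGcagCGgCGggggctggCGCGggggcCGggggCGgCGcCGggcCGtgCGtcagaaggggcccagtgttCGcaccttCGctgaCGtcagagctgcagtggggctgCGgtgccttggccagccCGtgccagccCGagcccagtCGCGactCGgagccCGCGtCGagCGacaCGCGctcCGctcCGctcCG

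The Nnat promoter held 17 CpG sites and that of Plagl1 26, against a median of 7 over the 32851 promoters of the same length. The upstream and downstream starts of Mest held 8 and 17, and those of Zdbf2 15 and 38. Of all promoters, 34.64% held 15 CpG sites or more. The letters CAGCTG, an E-box that myogenic factors bind, were found on either strand in the upstream Mest promoter and in 1 of the 13 promoters in all, against 16.3% of all promoters. The core letters of the PLAGL1 motif, GGGGCCCC, were found in 1 of the 13, that of Peg3, against 1.078% of all promoters, and the YY1 letters GCCATNTTG in 0, against 2.508%. Each match is a description of letters.

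The matrix of the CP-free clone held 5541 barcodes and 36999292 UMIs, and the matrix of the CP clone 12000 barcodes and 313078984 UMIs, for a target of 5000 cells each. After the limits on detected genes, mitochondrial and ribosomal protein counts, 3962 and 10834 barcodes were kept, with medians of 7112 and 21844.5 UMIs. The lowest barcode held 500 UMIs in the CP-free clone and 12097 in the CP clone, and only 170 and 1918 kept barcodes lay in the range of 12100 to 15860 UMIs set as shared by both. The libraries shared 18 barcode sequences, 11 of them kept in both. Values are counts per 1000000 UMIs (CPM) of the summed barcodes, and a gene counts as past 2-fold at a log2 ratio of 1 or more in size with at least 10 counts over the sums compared.

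Barcodes were put into 3 classes by genes outside the 10 described here. Acta1-high barcodes, the top 10% for skeletal alpha-actin, were the most differentiated and numbered 397 in the CP-free clone and 1084 in the CP clone. Myog-high barcodes, the top 10% of the rest for myogenin, numbered 357 and 975, and Pax7-positive barcodes, with at least 1 UMI of this stem cell factor and in neither other class, numbered 1838 and 6103. The summed level of 12 muscle genes was 867, 9860 and 47181 CPM in the Pax7-positive, Myog-high and Acta1-high barcodes of the CP-free clone, and 7253, 21534 and 74135 CPM in the CP clone. The 12 include Acta1, at 11183 and 15778 CPM in Acta1-high barcodes, so part of this rise follows from the class rule. Acta1 itself stood in Pax7-positive barcodes at 1.10% of its Acta1-high level in the CP-free clone and at 6.71% in the CP clone. Pax7 stood in Acta1-high barcodes at 2.61% and 4.13% of its Pax7-positive level, and the part of free RNA or shared droplets in the values below was not tested. The classes are ranges: 132 and 537 barcodes lay within 1.25 times the Acta1 threshold, 309 and 874 within that of Myog, and 723 and 1682 Pax7-positive barcodes held exactly 1 Pax7 UMI. Thresholds were set per library, at 5637 and 9688.8 CPM for Acta1 and at 2091.2 and 1713.1 CPM for Myog. Pax7 stood at 310 and 156 CPM in Pax7-positive barcodes, and Acta1-high barcodes had medians of 7913 and 40946 UMIs. The same class name thus covers unlike ranges in the libraries, and its part in the ratios between them was not tested.

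**Figure D1:**
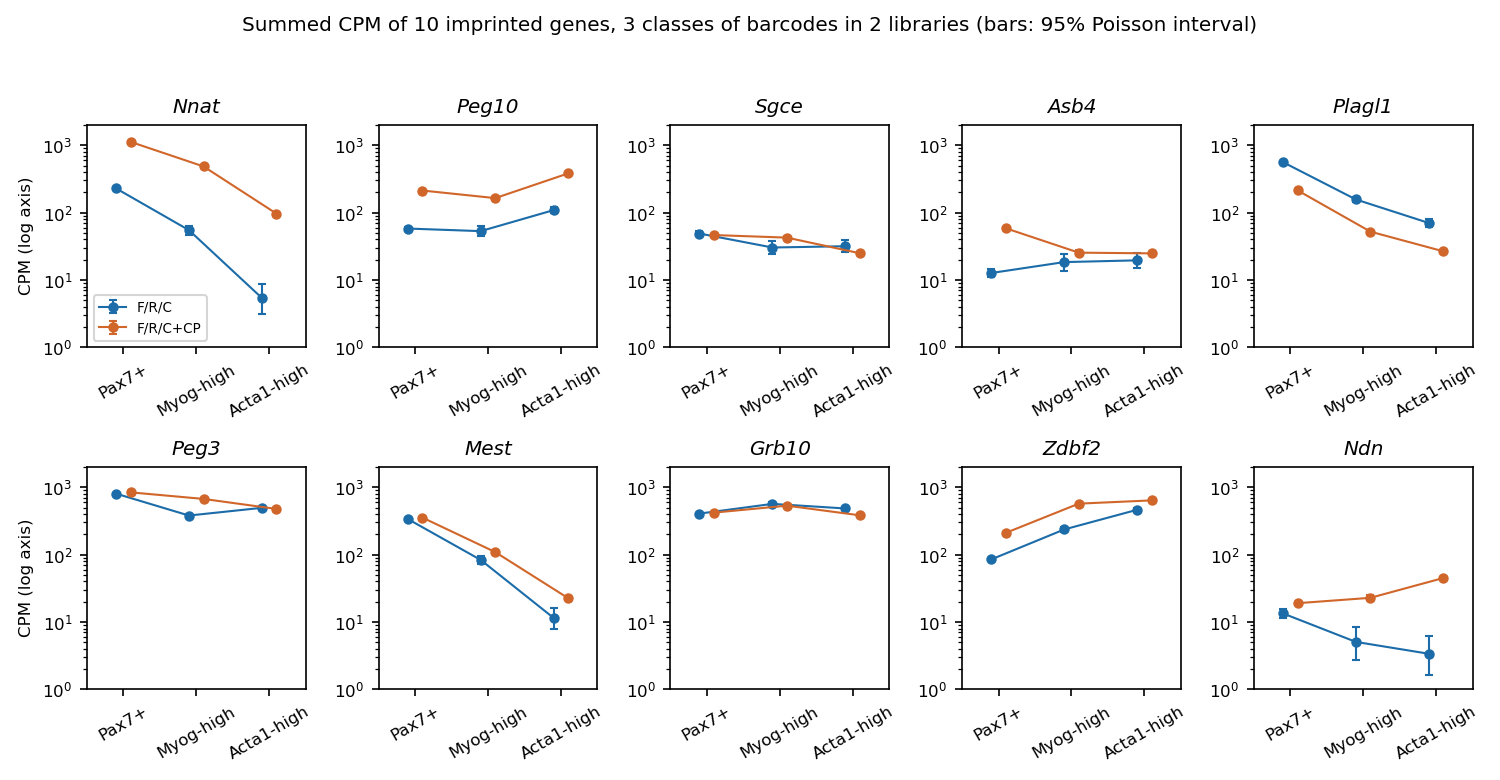
Level of each gene in CPM on a log axis in Pax7-positive, Myog-high and Acta1-high barcodes of the F/R/C library (blue) and the F/R/C+CP library (orange), with 95% Poisson intervals that cover counting error only. Nnat, Plagl1 and Mest descend from left to right in both libraries, Zdbf2 ascends, and the Ndn lines part, reaching 45.0 CPM in F/R/C+CP but only 3.37 CPM in the other library.

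Between the libraries over all kept barcodes, 5 of the 10 genes were higher in the CP clone by 2-fold or more, where 12.1% of 17999 genes were, and 1 was lower, where 13.2% were. Within Pax7-positive barcodes the counts were 4 higher, against 12.1% of 16959 genes, and 1 lower, against 12.2%. Since some of the genes were picked for this contrast, nothing is read from these counts. In summed barcodes, fewer cells that express a gene and less RNA of it per cell cannot be told apart. The 4 genes higher in Pax7-positive barcodes were Nnat, Asb4, Peg10 and Zdbf2, and the lower one was Plagl1. The median log2 ratio of genes at 50 CPM or more was -0.12 over all kept barcodes and -0.14 in Pax7-positive barcodes, so the ratios are to be read against that shift.

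Along the lineage, Nnat, Mest and Plagl1 were lower and Zdbf2 was higher in the more differentiated classes of both libraries. In Acta1-high over Pax7-positive barcodes of the CP-free clone, 4 of the 10 genes were lower by 2-fold or more (Nnat, Mest, Plagl1 and Ndn), where 39.3% of 13386 genes were, and 1 was higher (Zdbf2), where 10.1% were. In the CP clone, 4 were lower (Mest, Nnat, Plagl1 and Asb4), where 39.7% of 17204 genes were, and 2 were higher (Zdbf2 and Ndn), where 12.8% were. These shares lie near those of all genes. The median over the 10 genes was -0.66 in the CP-free clone and -0.86 in the CP clone, beside -0.68 and -0.64 over all genes. In Myog-high over Pax7-positive barcodes, 5 of the 10 were lower in the CP-free clone and 4 in the CP clone, where 26.5% and 27.9% of genes were, and 1 was higher in each, where 8.52% and 7.85% were. At 50 CPM or more the median gene was lower in Acta1-high barcodes by 0.39 in the CP-free clone and 0.20 in the CP clone on the log2 scale.

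**Figure D2:**
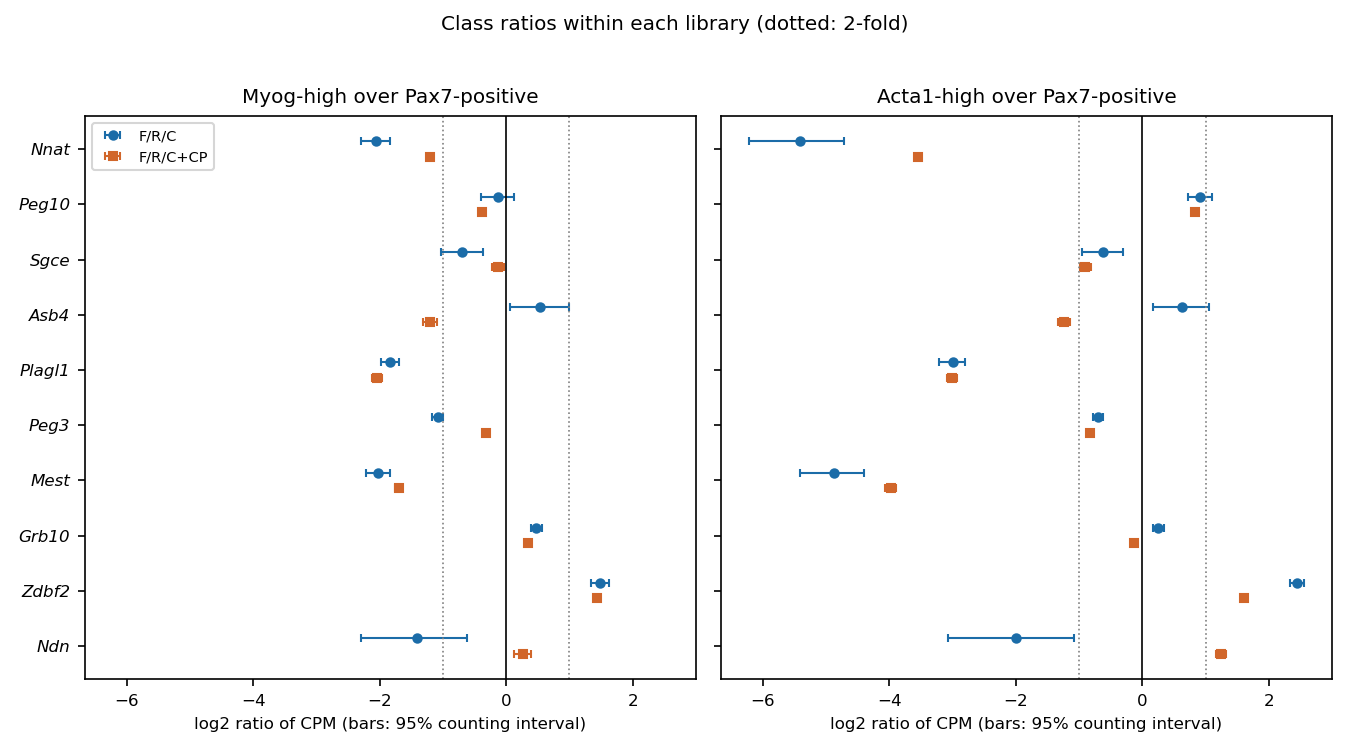
Log2 ratio of CPM in Myog-high (left) and Acta1-high (right) over Pax7-positive barcodes for the 10 genes in F/R/C (blue circles) and F/R/C+CP (orange squares), with 95% counting intervals and dotted lines at 2-fold. Nnat, Plagl1 and Mest lie left of the lower dotted line and Zdbf2 right of the upper one in both libraries and both panels, while the Ndn points fall on opposite sides of 0.

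Among the nuclear proteins, Plagl1 was the only one of the 10 genes that was lower in the CP clone by 2-fold or more. In the CP-free clone it stood at 562 CPM in Pax7-positive, 157 CPM in Myog-high and 70.2 CPM in Acta1-high barcodes. The CP clone held 214, 52.2 and 26.6 CPM. Every class of the CP-free clone thus lay above the same class of the CP clone, by 2.63-fold in Pax7-positive barcodes. The log2 ratio of the CP clone over the CP-free clone was -1.39 in Pax7-positive (95% interval -1.43 to -1.36), -1.59 in Myog-high (-1.75 to -1.43) and -1.40 in Acta1-high barcodes (-1.61 to -1.18). The log2 ratio of Acta1-high over Pax7-positive was -3.00 (-3.21 to -2.80) in the CP-free clone and -3.01 (-3.09 to -2.93) in the CP clone. With every barcode thinned to 2000 UMIs, 60.8% of 1811 Pax7-positive barcodes in the CP-free clone held a Plagl1 UMI (exact 95% interval 58.5 to 63.1%) and 32.8% of 6103 in the CP clone (31.6 to 34.0%), while without thinning the shares were 88.3% and 89.8%. The median depths of these barcodes were 7514.5 and 20903 UMIs. Within the UMI range that Pax7-positive barcodes of both libraries hold, 12100 to 15860 UMIs, the log2 ratio was -1.09 over 61 and 1149 barcodes.

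Of the 19 genes listed for the Plagl1 network, 17 had a row in the matrices. In Pax7-positive barcodes 2 of the 17 were higher and 2 lower in the CP clone by 2-fold or more, where 12.1% and 12.2% of all genes were, with a median log2 ratio of 0.07 beside -0.07 over all genes. The list shares 6 of its genes with the 10 described here, so these values are not independent of them. Dlk1, a Notch-like membrane protein of muscle and fat precursors, was lower, at 118 CPM against 344 CPM. In Acta1-high over Pax7-positive barcodes 1 network gene was higher and 5 lower in the CP-free clone, and 4 higher and 3 lower in the CP clone, where 10.1% and 39.3%, and 12.8% and 39.7%, of all genes were. Gatm, an enzyme of creatine synthesis, was higher in both, at 403 against 34.2 CPM in the CP-free clone and 239 against 53.9 CPM in the CP clone.

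Peg3 codes for a large zinc finger protein and was close to level between the libraries. It stood at 805, 380 and 495 CPM in Pax7-positive, Myog-high and Acta1-high barcodes of the CP-free clone and at 841, 671 and 476 CPM in the CP clone. The Myog-high level was the one that set the libraries apart, with a log2 ratio of 0.82 (0.73 to 0.91), against 0.06 (0.04 to 0.09) in Pax7-positive and -0.06 (-0.13 to 0.02) in Acta1-high barcodes. In the CP-free clone the Myog-high barcodes were the lowest of the 3 classes, and in the CP clone the Acta1-high barcodes were. Usp29, the ubiquitin protease that lies next to Peg3 and is paternally expressed with it, had the profile nearest to that of Peg3 among genes with at least 50 CPM in some class (distance 0.399 over the 6 sums of log2(CPM + 5), centred for each gene). Usp29 stood at 81.1 against 51.8 CPM in Pax7-positive barcodes (log2 ratio 0.65), and Zim1 on the other side of Peg3 at 76.2 against 49.2 CPM (0.63). Both neighbours lay above Peg3 in this ratio, and neither passed 2-fold.

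Zdbf2, a zinc finger gene known for its role in growth after birth, was the one gene of the 10 higher in Acta1-high barcodes by 2-fold or more in both libraries. It stood at 84.8, 236 and 463 CPM in the Pax7-positive, Myog-high and Acta1-high barcodes of the CP-free clone and at 210, 571 and 639 CPM in the CP clone. Each step of the lineage was higher than the step before in both libraries, with no overlap of the counting intervals. The log2 ratio of Acta1-high over Pax7-positive was 2.45 (2.34 to 2.56) in the CP-free clone and 1.60 (1.58 to 1.63) in the CP clone. The CP clone lay above the CP-free clone by 1.31 (1.23 to 1.40) in Pax7-positive, 1.27 (1.16 to 1.39) in Myog-high and 0.46 (0.39 to 0.54) in Acta1-high barcodes. The difference between the libraries was thus smaller in the most differentiated class. In the shared UMI range the Pax7-positive ratio was 0.77, under 2-fold, and over all kept barcodes the ratio turned from 1.20 to -0.26. The mix of classes in that range was unlike. Acta1-high barcodes made up 37 of 170 kept barcodes in the CP-free clone and 54 of 1918 in the CP clone. The all-barcode value is thus not a comparison of like cells, and the part of the class mix in it was not tested. Zdbf2 shared its profile most closely with Zfp106 (distance 0.329), Synpo2 (0.388) and Gmpr (0.505). Zfp106, a zinc finger gene known from muscle and motor neuron disease in mice, stood at 98.5, 322 and 506 CPM in the CP-free clone and at 281, 762 and 906 CPM in the CP clone. The neighbour Gpr1, imprinted with Zdbf2 in mice, stayed below 1 CPM in Pax7-positive barcodes, at 0.428 CPM in the CP-free clone and 0.295 CPM in the CP clone.

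The growth-signalling and metabolic genes Grb10 and Mest hardly differed between the libraries in Pax7-positive barcodes. Grb10, an adaptor that restrains insulin and IGF1 receptor signalling, stood at 407, 567 and 485 CPM in Pax7-positive, Myog-high and Acta1-high barcodes of the CP-free clone and at 420, 533 and 383 CPM in the CP clone. It was highest in Myog-high barcodes in both libraries and stayed within 2-fold in every class and contrast. The Acta1-high over Pax7-positive log2 ratio was 0.25 (0.17 to 0.34) in the CP-free clone and -0.13 (-0.16 to -0.11) in the CP clone, and the second turned to 0.07 with ratios scaled by the median gene, so its sign is not firm. Iars, an aminoacyl-tRNA synthetase, had the nearest profile (distance 0.147). Ddc, the dopa decarboxylase gene beside Grb10, differed by -0.10 between the libraries in Pax7-positive barcodes but was higher in Acta1-high than Pax7-positive barcodes of both, at 118 against 29.1 CPM in the CP-free clone and 101 against 27.2 CPM in the CP clone. Egfr, a receptor gene 5 places from Grb10 and named after its value was seen, stood at 47.5 CPM in the CP clone and 132 CPM in the CP-free clone.

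Mest, which codes for an enzyme of the alpha/beta hydrolase fold, was far lower in the differentiated classes of both libraries. It stood at 338 CPM in Pax7-positive, 83.5 CPM in Myog-high and 11.5 CPM in Acta1-high barcodes of the CP-free clone, and at 355, 109 and 22.5 CPM in the CP clone. The Acta1-high over Pax7-positive log2 ratio was -4.88 (-5.41 to -4.40) in the CP-free clone and -3.98 (-4.07 to -3.89) in the CP clone. The Acta1-high level was 3.39% of the Pax7-positive level in the CP-free clone and 6.35% in the CP clone. Pax7 in the same Acta1-high barcodes stood at 2.61% and 4.13% of its own Pax7-positive level. The genes with the nearest profile were H2ac24 (distance 0.759), Prc1 (0.759) and Hmmr (0.972), a histone gene and a pair of mitotic genes. Within Pax7-positive barcodes Mest stood at 353 CPM with and 314 CPM without a UMI of the cycling marker Mki67 in the CP-free clone, and at 369 and 312 CPM in the CP clone. The part of cycling cells in the class values was not tested. Its neighbour Copg2 stood at 51.6 against 58.6 CPM in Pax7-positive barcodes, and Klf14 below 2 CPM in both libraries.

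Nnat, which codes for a small membrane protein of the endoplasmic reticulum, was higher in every class of the CP clone and lower in the differentiated classes of both libraries. In the CP-free clone it stood at 229 CPM in Pax7-positive, 54.9 CPM in Myog-high and 5.40 CPM in Acta1-high barcodes, the last from 16 counts. Its levels in the CP clone were 1123, 485 and 96.6 CPM. Every class of the CP clone lay above its counterpart in the CP-free clone, with log2 ratios of 2.29 (2.24 to 2.34), 3.14 (2.91 to 3.38) and 4.16 (3.46 to 4.97). The ratio was larger in the classes where the level was lower. Acta1-high over Pax7-positive gave -5.41 (-6.22 to -4.71) in the CP-free clone and -3.54 (-3.58 to -3.50) in the CP clone. After thinning, 29.0% of Pax7-positive (26.9 to 31.1%) and 0 of 342 Acta1-high barcodes held a Nnat UMI in the CP-free clone, which allows a share of up to 1.07%. The shares were 78.3% (77.2 to 79.3%) and 15.4% (13.3 to 17.7%) in the CP clone. Unthinned, they were 55.4%, 3.78%, 97.3% and 83.1%. Acta1, read the same way in Pax7-positive barcodes, was found in 18.2% of thinned barcodes in the CP-free clone and 79.8% in the CP clone, so these shares are not read as expression on their own.

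Nnat was also read in barcodes of the CP clone with genes of other cell types, which overlap the 3 classes. In 75 barcodes with melanocyte genes it stood at 296 CPM, in 181 with Myh11, a smooth muscle myosin, at 304 CPM and in 334 with Bgn, a connective tissue proteoglycan, at 411 CPM, all above the 96.6 CPM of Acta1-high barcodes. These are 26.4%, 27.1% and 36.6% of the Pax7-positive level, and Pax7 in the same barcodes was at 27.3%, 45.5% and 99.2% of its own. How much of the Nnat there came from free RNA or shared droplets was not tested. A list of 8 neural genes, tissue where Nnat is high, summed to 116 CPM in Pax7-positive barcodes of the CP-free clone and 115 CPM in the CP clone. Of these genes, 3 reached 10 CPM in the CP-free clone and 1 in the CP clone, so like sums do not mean like levels of each gene. Nnat differed 4.90-fold between the same barcodes, and the part of neural-like cells in that difference was not tested. Blcap, the gene whose intron holds Nnat in mice, stood at 23.3 against 22.5 CPM in Pax7-positive barcodes (log2 ratio 0.05). Of 9 flanking genes that could be compared, 1 was higher and 0 lower in the CP clone by 2-fold or more.

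Peg10, Sgce and Asb4 lie in one imprinted cluster and differed in their ratios. Peg10, derived from a retrotransposon and known from the placenta, stood at 58.0, 53.1 and 109 CPM in Pax7-positive, Myog-high and Acta1-high barcodes of the CP-free clone and at 213, 164 and 382 CPM in the CP clone. The CP clone was higher in every class, with log2 ratios of 1.88 (1.78 to 1.98), 1.63 (1.39 to 1.88) and 1.81 (1.65 to 1.97). Both libraries had their highest level in Acta1-high barcodes, at 0.91 (0.72 to 1.10) over Pax7-positive in the CP-free clone and 0.84 (0.82 to 0.87) in the CP clone, just under 2-fold. With ratios scaled by the median gene these became 1.30 and 1.05, past 2-fold.

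Sgce, the epsilon-sarcoglycan gene that starts beside Peg10 and runs the other way, did not differ by 2-fold between the libraries in any class. Its levels were 48.9, 30.4 and 31.7 CPM in the CP-free clone and 46.5, 42.5 and 24.9 CPM in the CP clone, with log2 ratios of -0.07 (-0.19 to 0.04) in Pax7-positive, 0.49 (0.17 to 0.83) in Myog-high and -0.35 (-0.65 to -0.03) in Acta1-high barcodes. The intervals of Sgce and Peg10 did not overlap in any of the 3 classes. Sgce was lower in Acta1-high than in Pax7-positive barcodes, by a log2 ratio of -0.62 (-0.95 to -0.31) in the CP-free clone and -0.90 (-0.99 to -0.81) in the CP clone. In thinned Pax7-positive barcodes, Peg10 and Sgce were found together in 1.27% of barcodes in the CP-free clone and 3.13% in the CP clone, beside 0.907% and 2.94% from the product of their shares.

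Asb4, a substrate adaptor of ubiquitin ligases, was higher in the CP clone by 2-fold or more in the Pax7-positive class alone of the 3. It stood at 12.7, 18.4 and 19.6 CPM in the CP-free clone, from 178, 51 and 58 counts, and at 58.6, 25.5 and 24.8 CPM in the CP clone. The log2 ratio of the libraries was 2.21 (1.99 to 2.43) in Pax7-positive, 0.47 (0.05 to 0.91) in Myog-high and 0.34 (-0.04 to 0.75) in Acta1-high barcodes. The lineage ratio thus pointed up in the CP-free clone, at 0.62 (0.17 to 1.06), and down in the CP clone, at -1.24 (-1.33 to -1.15), and this difference between the libraries was not tested. In thinned Pax7-positive barcodes 2.15% held an Asb4 UMI in the CP-free clone (1.54 to 2.93%) and 11.2% in the CP clone (10.4 to 12.0%). The other imprinted genes of the cluster were level or low, with Ppp1r9a at 154 against 146 CPM, Casd1 at 25.4 against 27.3 CPM, Pon2 at 14.9 against 12.3 CPM and Pon3 at 3.86 against 7.49 CPM in Pax7-positive barcodes. Beyond Asb4, Dync1i1 was higher at 50.1 against 17.3 CPM and Slc25a13 lower at 3.21 against 15.5 CPM, both named after their values were seen.

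**Figure D3:**
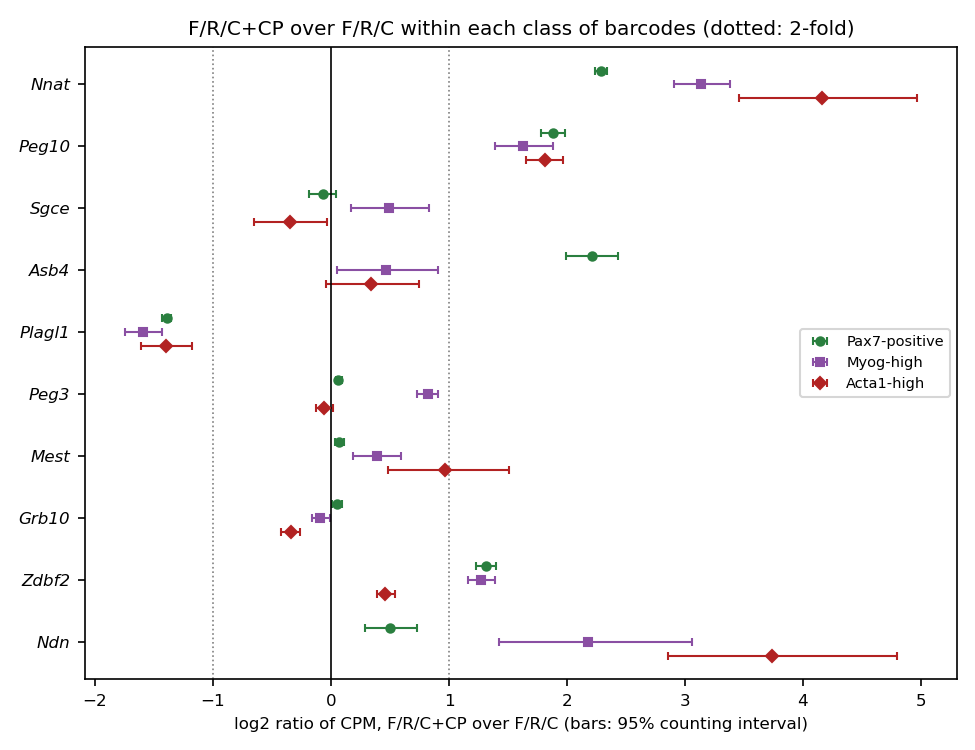
Log2 ratio of CPM, F/R/C+CP divided by F/R/C, within Pax7-positive (green circles), Myog-high (purple squares) and Acta1-high barcodes (red diamonds), with 95% counting intervals and dotted lines at 2-fold. The ratios spread across the classes from 0.50 to 3.74 for Ndn, from 2.29 to 4.16 for Nnat and from 0.34 to 2.21 for Asb4, while Plagl1 stays between -1.59 and -1.39.

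Ndn, which codes for the MAGE-family protein necdin of the Prader-Willi region, had lineage ratios of opposite sign in the libraries. It stood at 13.4, 5.06 and 3.37 CPM in Pax7-positive, Myog-high and Acta1-high barcodes of the CP-free clone, the last 2 from 14 and 10 counts, and at 19.01, 22.9 and 45.0 CPM in the CP clone. The Acta1-high level was thus the lowest of the 3 in the CP-free clone and the highest in the CP clone. The log2 ratio of Acta1-high over Pax7-positive was -1.99 (-3.07 to -1.08) in the CP-free clone and 1.24 (1.16 to 1.33) in the CP clone, and the difference was not tested. Between the libraries the log2 ratio was 0.50 (0.29 to 0.73) in Pax7-positive, 2.18 (1.42 to 3.06) in Myog-high and 3.74 (2.86 to 4.80) in Acta1-high barcodes. In the shared UMI range the Pax7-positive ratio was 2.94, over 61 barcodes of the CP-free clone and 1149 of the CP clone. With so few barcodes of the CP-free clone and no interval given, the size of this value is not firm.

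Neighbours of Ndn in the same imprinted domain were partly higher in the CP clone as well. Snrpn, a splicing protein gene, stood at 7.25 against 2.85 CPM in Pax7-positive barcodes (log2 ratio 1.35, 0.89 to 1.84), and Magel2, like Ndn a MAGE-family gene, at 1.70 against 0.713 CPM (1.25, 0.35 to 2.33). In the CP clone both were higher in Acta1-high than in Pax7-positive barcodes, as Ndn was, with Snrpn at 17.4 CPM and Magel2 at 12.7 CPM. The CP-free clone held Snrpn at 4.72 CPM in Acta1-high against 2.85 CPM in Pax7-positive barcodes (log2 ratio 0.73) and Magel2 at 0.675 against 0.713 CPM (-0.08), beside -1.99 for Ndn. Peg12 was lower in Acta1-high than in Pax7-positive barcodes of both libraries, at 0.675 against 15.5 CPM in the CP-free clone and 0.945 against 12.5 CPM in the CP clone. Ube3a, a ubiquitin ligase imprinted in neurons, was level at 178 against 165 CPM between the libraries, and Mkrn3 and Atp10a stayed below 3 CPM.

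**Figure D4:**
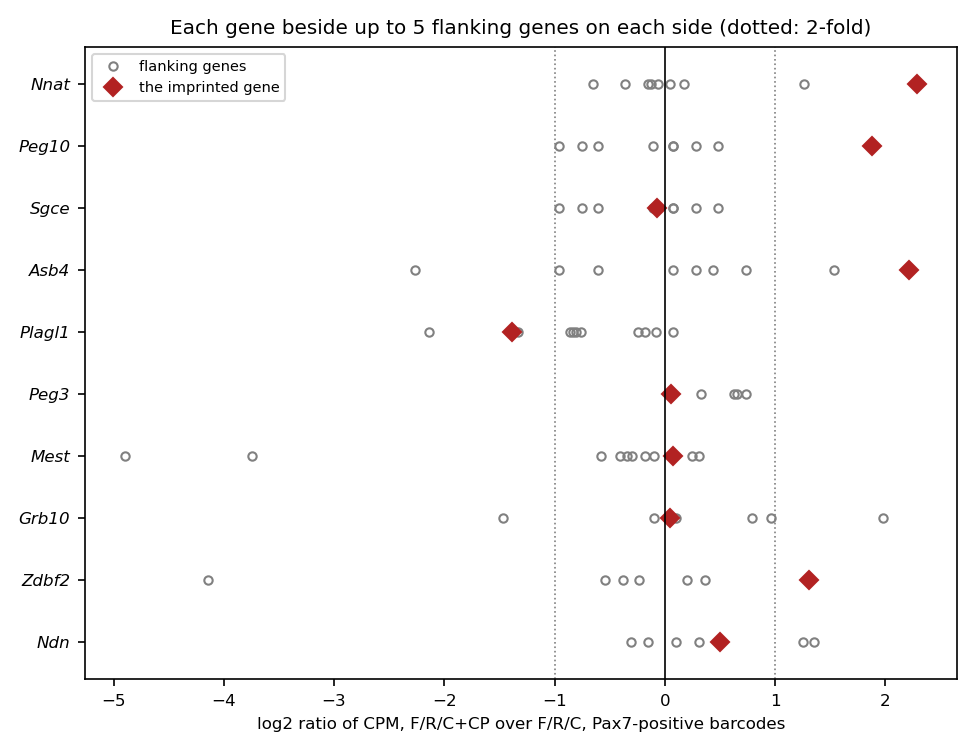
Log2 ratio of CPM, F/R/C+CP divided by F/R/C, in Pax7-positive barcodes for each of the 10 genes (red diamonds) and for up to 5 flanking genes on each side with at least 10 counts and a counting interval under 4 log2 units wide (open circles), other described genes left out. The diamonds of Nnat at 2.29 and Peg10 at 1.88 lie right of all their flanking genes shown, and the Plagl1 diamond at -1.39 lies among them.

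Across the loci, flanking genes were taken by RefSeq order in build GRCm38.p6 and their ratios between the libraries were read in Pax7-positive barcodes. Their median log2 ratio was -0.06 at Nnat on chromosome 2 and -0.01 at Zdbf2 on chromosome 1, beside 2.29 and 1.31 for the genes themselves. On chromosome 6 it was -0.02 at Peg10, 0.18 at Asb4, -0.02 at Sgce and -0.32 at Mest, beside 1.88, 2.21, -0.07 and 0.07. It was 0.63 at Peg3 and 0.31 at Ndn on chromosome 7, beside 0.06 and 0.50. At Grb10 on chromosome 11 it was 0.45, beside 0.05. At Plagl1 on chromosome 10 it was -0.79 over 10 genes, with 2 of them lower by 2-fold or more, Stx11 (1.65 against 7.27 CPM) and Fuca2 (3.72 against 9.34 CPM), both named after their values were seen. Phactr2, on the list of imprinted genes and 3 places from Plagl1, was level between the libraries at 152 against 173 CPM. Like Plagl1, it was lower in Acta1-high than in Pax7-positive barcodes of both libraries, at 22.9 CPM in the CP-free clone and 20.1 CPM in the CP clone. The nearest profiles to Plagl1 were those of Lama2 (distance 0.286), Wwox (0.546) and Mthfd1l (0.591). Lama2, the laminin alpha2 chain of the muscle basement membrane, stood at 954, 313 and 150 CPM in the CP-free clone and at 396, 118 and 52.8 CPM in the CP clone.

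Pax7-positive barcodes were also split by Cdkn1c, an imprinted cell cycle inhibitor. After thinning to 2000 UMIs, 535 barcodes in the CP-free clone and 847 in the CP clone had 0 Cdkn1c UMIs, here called Cdkn1c-low, and 1276 and 5256 had at least 1, here called Cdkn1c-high. Before thinning, Cdkn1c stood at 99.4 CPM in the Cdkn1c-low and 3173 CPM in the Cdkn1c-high barcodes of the CP-free clone, and at 513 and 2707 CPM in the CP clone, so the groups of the CP clone lay closer together in Cdkn1c itself. Ndn stood at 37.1 CPM in Cdkn1c-low and at 4.27 CPM in Cdkn1c-high barcodes of the CP-free clone, an 8.69-fold difference (log2 ratio 3.12, 2.62 to 3.65). In the CP clone it stood at 20.3 and 18.8 CPM (0.11, -0.06 to 0.27). The signal in the CP-free clone was spread over barcodes, with an Ndn UMI in 115 of the 535 (21.5%, exact 95% interval 18.1 to 25.2%) and in 38 of the 1276 (2.98%, 2.12 to 4.06%), at most 4 UMIs in any of them and medians of 7237 and 7784.5 UMIs. In the CP clone the shares were 33.5% and 32.3%, at medians of 19503 and 21150 UMIs. All these shares are unthinned, so they are not compared between the libraries. Of the 188 Ndn counts in Pax7-positive barcodes of the CP-free clone, 145 lay in Cdkn1c-low barcodes.

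Of the 10 genes, Ndn was the one higher by 2-fold or more in Cdkn1c-low barcodes of the CP-free clone, where 6.66% of 13026 genes were, and Asb4 the one lower, where 4.86% were. Asb4 stood at 6.39 CPM in Cdkn1c-low and 15.2 CPM in Cdkn1c-high barcodes, from 25 and 153 counts. In the CP clone 0 of the 10 were higher and 0 lower, where 8.91% and 2.72% of 16763 genes were. Plagl1 was lower in Cdkn1c-low barcodes of both libraries, at 345 against 646 CPM in the CP-free clone (log2 ratio -0.90, -0.99 to -0.82) and at 162 against 222 CPM in the CP clone (-0.45, -0.51 to -0.40). Dlk1 was also lower in both, at 233 against 388 CPM and at 75.4 against 125 CPM. The difference between the libraries was not tested. The split was added after other results of these data were known.

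**Figure D5:**
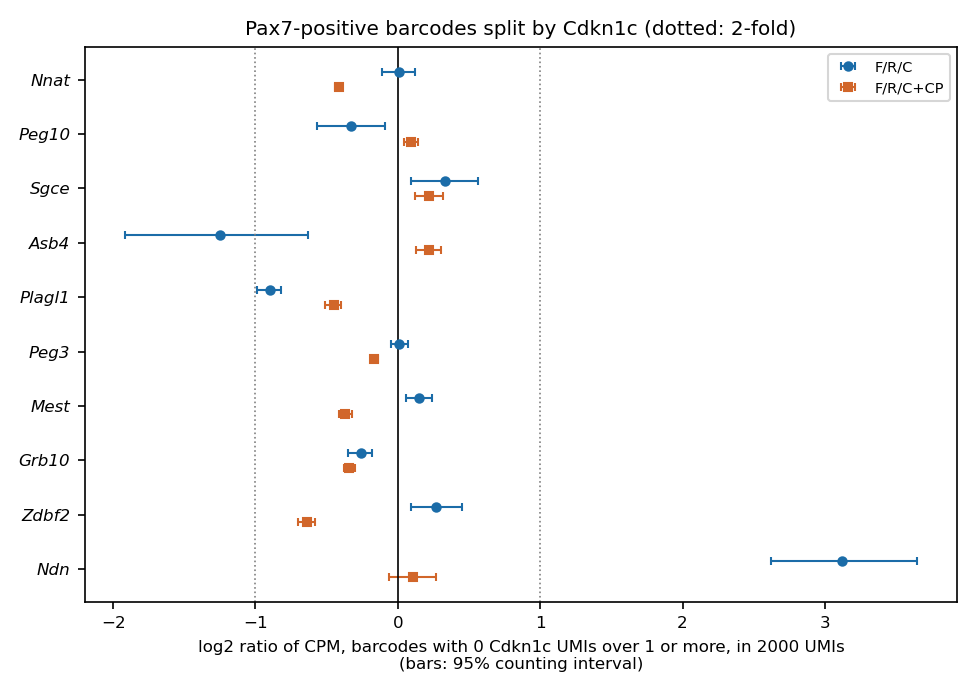
Log2 ratio of CPM in Pax7-positive barcodes with 0 Cdkn1c UMIs over those with 1 or more, each barcode thinned to 2000 UMIs for the split, in F/R/C (blue circles) and F/R/C+CP (orange squares), with 95% counting intervals and dotted lines at 2-fold. The Ndn point of F/R/C stands alone at 3.12, the Asb4 point of F/R/C is the only other one past a dotted line, at -1.25, and Plagl1 is left of 0 in both libraries.

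Of 71 other imprinted genes listed, 59 had a row in the matrices and 56 could be compared between the libraries. In Pax7-positive barcodes 7 of the 56 were higher and 4 lower in the CP clone by 2-fold or more, near the 12.1% and 12.2% of all genes, with a median log2 ratio of -0.10 beside -0.07 over all genes. Rtl1, a retrotransposon-derived gene of the Dlk1 cluster known from muscle and placenta, was higher over all kept barcodes, at 50.4 against 7.86 CPM. It stood at 1.57 CPM in Pax7-positive and 36.8 CPM in Acta1-high barcodes of the CP-free clone and at 14.4 and 194 CPM in the CP clone. In Acta1-high over Pax7-positive barcodes, 6 of 44 were higher and 15 lower in the CP-free clone, and 11 of 54 higher and 20 lower in the CP clone, beside the 10.1%, 39.3%, 12.8% and 39.7% of all genes. Of the imprinted genes set aside here, Dlk1 had a log2 ratio of -1.54 in Pax7-positive barcodes, Igf2 of 0.77 and Cdkn1c of 0.07.

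Most genes of a list drawn up around imprint maintenance were lower in the most differentiated class. The list also holds Tet1, Tet3 and Dnmt3a, so it is wider than the genes that keep imprints through division. Of 24 listed, 20 could be compared in the CP-free clone and 21 in the CP clone, and 17 were lower by 2-fold or more in Acta1-high than in Pax7-positive barcodes of each library, with 1 and 0 higher. Over all genes 39.3% and 39.7% were lower, and 10.1% and 12.8% higher. The median log2 ratio was -1.41 and -1.43, beside -0.68 and -0.64 over all genes. Uhrf1, which brings the methyltransferase to newly copied DNA, stood at 120 and 2.02 CPM in the CP-free clone and at 55.4 and 3.55 CPM in the CP clone. Dnmt1, that methyltransferase, stood at 121.5 and 4.72 CPM and at 106 and 10.0 CPM, and Hells, a chromatin remodeller, at 109 and 7.42 CPM and at 76.7 and 5.01 CPM. Ctcf, the insulator protein, stood at 132 and 36.8 CPM and at 127 and 35.2 CPM. Mki67, a marker of cycling cells, was lower with them, at 252 and 5.40 CPM and at 227 and 6.94 CPM, and its part in these values was not tested. Between the libraries in Pax7-positive barcodes, Uhrf1 was lower in the CP clone at 55.4 against 120 CPM, Tet1, a dioxygenase that oxidises methylated cytosine, was higher at 35.4 against 17.5 CPM, and 19 of the 21 genes stayed within 2-fold.

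Within Pax7-positive barcodes the 10 genes differed little between those with and without a UMI of Mki67 before thinning. Depth enters this split. In the CP-free clone 1004 barcodes with Mki67 held 8687497 UMIs and 834 without held 5337539. In the CP clone 4254 held 103872929 and 1849 held 35231439. How far the genes vary with cycling itself was thus not tested. Among Pax7-positive barcodes with over those without an Mki67 UMI, the 10 genes ranged from -0.33 for Ndn to 0.25 for Nnat in the CP-free clone and from -0.24 for Zdbf2 to 0.27 for Nnat in the CP clone on the log2 scale. By depth, the 25% of Pax7-positive barcodes with the most UMIs over the 25% with the fewest gave -1.10 for Ndn in the CP-free clone and values between -0.26 and 0.23 for the other 9 genes, and between -0.38 for Plagl1 and 0.53 for Zdbf2 in the CP clone. Ndn in the CP-free clone was thus the gene of the 10 with the largest ratio by depth.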

How the data were processed

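Single-cell libraries of 1 clone with and 1 clone without CP were sequenced from the 3′ end with the 10x chemistry. The authors aligned the reads to GRCm39 with Cell Ranger 7.0.0 and deposited UMI counts per gene and barcode, and their notes also name STARsolo and Seurat 4.2.1. A correction for free RNA that the study describes for the CP clone is not visible in the values, which are whole numbers. For intronic reads, whether they were counted is not stated in the sources used here.

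Barcodes were kept with at least 250 genes, at most 4000 (the CP-free clone) or 7000 (the CP clone) genes, at most 15% mitochondrial and 40% ribosomal protein counts. No doublet caller was run. The lowest count in a class threshold was 2 UMIs of Acta1 or Myog. Counts were summed per library and class. Levels have exact Poisson intervals, ratios exact conditional binomial intervals and shares exact Clopper-Pearson intervals, all at 95% and for counting error only, and a sum of 0 was set to 3 counts for a ratio. With 1 library per group no test across samples could be made. Shares were read after thinning to 2000 UMIs (seed 1), and likeness by Euclidean distance of centred log2(CPM + 5).

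The 10 genes and all lists were chosen with earlier results of these data known. List genes are named where they passed 2-fold with at least 20 CPM in a sum, at most 6 per list and comparison, and the 3 nearest genes are named for some genes with 50 CPM or more, and 2 results are not reported here. The splits by Cdkn1c, Mki67 and depth were added after other results were seen. Alternatives covered the barcode filter, depth range, weighting, scaling, class size, Pax7 threshold, fold, minimum count and barcodes with the most UMIs. Python 3.11.15, numpy 2.4.6, scipy 1.17.1, pandas 2.3.3 and matplotlib 3.10.9 were used.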

Additional observations from a re-analysis of the deposited data

Results flagged for a closer look

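For 3 of the 10 genes the ratio along the lineage had opposite signs in the libraries, and with 1 library per clone none of these differences was tested. Asb4 in Acta1-high over Pax7-positive barcodes had a log2 ratio of 0.62 in the CP-free clone and -1.24 in the CP clone. In Myog-high over Pax7-positive barcodes its ratios were 0.54 and -1.20, and the first ranged from -0.01 to 1.85 under the alternatives. Ndn had ratios of -1.99 and 1.24 in Acta1-high and of -1.41 and 0.27 in Myog-high over Pax7-positive barcodes, the CP-free clone values resting on 10 and 14 counts in the differentiated classes. Grb10 had ratios of 0.25 and -0.13 in Acta1-high over Pax7-positive barcodes, and the second became 0.07 when scaled by the median gene. For Ndn in Myog-high over Pax7-positive barcodes of the CP clone, the alternatives ranged from -0.10 to 0.41, so that sign is not firm either.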

How the results depend on the processing

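Of 618 ratios of the 10 genes recomputed under alternatives, 366 stayed within their counting interval, 251 left it, 23 changed sign and 27 crossed 2-fold, and of 172 counts of genes past 2-fold 153 were within 1.5 times the first value. The ratio of Zdbf2 between the libraries over all kept barcodes turned from 1.20 to -0.26 in the shared UMI range, where 0 genes were lower in the CP clone in place of 1, and the higher count in Acta1-high over Pax7-positive barcodes of the CP-free clone was 3 and in Myog-high 2. In that range 37 of 170 kept barcodes were Acta1-high in the CP-free clone and 54 of 1918 in the CP clone, so the all-barcode values compare unlike mixes of classes. Scaling by the median ratio and a 1.5-fold limit also gave 3 higher in Acta1-high barcodes of the CP-free clone, and no barcode filter gave 2. Weighting each barcode equally gave 3 higher over all kept barcodes. Classes of the top 20% gave 0 higher and 2 lower in Myog-high barcodes of the CP-free clone, and 2 lower in those of the CP clone. A 4-fold limit gave 1 higher and 0 lower over all kept barcodes, 2 and 0 in Pax7-positive barcodes, 0 higher in Acta1-high barcodes of the CP clone, 0 higher and 2 lower in Myog-high barcodes of the CP-free clone, and 0 and 1 in those of the CP clone. Apart from the changed limits, the cause was not tested. No paired analysis was possible because each group is 1 library, and for the same reason no replicate could be left out. Ndn and Asb4 in the CP-free clone rest on at most 188 and 178 counts per class, and the shared UMI range holds 61 Pax7-positive barcodes of the CP-free clone.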

Other observations

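In barcodes of the CP clone with genes of smooth muscle or connective tissue, which overlap the 3 classes, Ndn and Sgce stood at higher levels than in Pax7-positive barcodes. In 181 barcodes with Myh11, Ndn stood at 33.4 CPM and Sgce at 78.6 CPM, which are 175% and 169% of their Pax7-positive levels. In 334 barcodes with Bgn they stood at 30.2 and 70.8 CPM, or 159% and 152%. All the other genes of the 10 were lower there than in Pax7-positive barcodes. With Myh11 they ranged from 25.4% for Plagl1 to 69.5% for Zdbf2, and with Bgn from 31.1% for Mest to 68.7% for Grb10. The barcodes were taken by at least 3 UMIs of Myh11 or Bgn before thinning.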
